A study of Mus musculus with 12 samples.

Results

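Gene deserts were the 248 autosomal stretches of more than 1 Mb that lie between neighbouring protein-coding genes on either strand and hold no reference gap of more than 50 kb. They were defined by position, from the mouse mm10 assembly and its GENCODE M21 annotation, out of 2409 intervals between protein-coding genes of more than 100 kb, by a rule that uses no measured value. Their lengths ran from 1006312 bp to 4.668 Mb with a median of 1.51 Mb, the longest interval left out was 997748 bp, 71 deserts exceeded 2 Mb and 26 exceeded 3 Mb. Together they covered 449.9 Mb, or 18.3% of the autosomal 1 kb bins, with the most, 22, on chromosome 3 and the fewest, 5, on chromosome 19. Deserts were richer in A and T than the other autosomal bins (61.6% against 57.3% of bases), poorer in CpG (5.57 against 9.18 per kb) and more often soft-masked as repeats (40.4% against 31.9% of bases). They held 817 of the 5209 annotated lincRNA genes of the autosomes or 1.82 per Mb against 2.18 per Mb elsewhere.

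Large deserts commonly flank genes for developmental regulators and neuronal adhesion proteins, and they often carry enhancers that act over long distances. Active promoters and transcribed genes tend to lie beside regions where replication starts early, whereas long stretches without transcription are typically copied late, by forks that enter from outside or start at scattered, inefficient sites. Okazaki fragments, the short pieces of the lagging strand, show which way a fork moved. Those read from the Crick strand come from forks that move from left to right on the reference, and those from the Watson strand come from forks that move from right to left. A share of Crick reads that falls from left to right across a desert therefore means that forks from both sides move into it, and a share that rises marks a zone from which forks leave.

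The study sequenced EdU-labelled Okazaki fragments (OK-seq) from mouse embryonic stem cells to ask how KMT2C and KMT2D, the enzymes that place H3K4 monomethylation at enhancers, bear on where replication begins. All 6 groups lacked normal KMT2C activity. The control carried a KMT2C KO with KMT2D present in a conditional line with CreER, KMT2C/D dKO was that line after 4-hydroxytamoxifen had deleted KMT2D, and KMT2C/D dCD carried catalytically inactive forms of both enzymes. Each was studied as naive cells kept in LIF and 2i and as EpiLCs, formative cells obtained after LIF and 2i were withdrawn. The control and dKO cells had a mixed C57BL/6 and 129 background and undetermined sex, whereas the dCD cells were derived from the male 129 line R1, so the effect of the inactive enzymes and that of the line cannot be told apart. Each group had 2 replicates, but the binned tracks used here hold their sum, which leaves 1 library per group and no measure of the spread between replicates. For this reason no test between groups was made, and the 95% intervals below cover counting error only. PCR copies were not told apart by molecular identifiers, so the intervals may be too narrow even for that. Both mutants of a cell state were set against the same control library, so their differences from it are not independent of each other.

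The libraries held 4409068, 3937871 and 3655095 reads in naive control, dKO and dCD cells and 11407678, 12962445 and 13601460 reads in EpiLC control, dKO and dCD cells. Of these, 515797 to 635401 reads fell in deserts in the naive libraries and 1625684 to 2029698 in the EpiLC libraries. The naive intervals are correspondingly wider. Reads at a single desert ranged upwards from 309 in the shallowest library, and 4.03% of desert bins had no read in any library against 3.27% elsewhere.

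The following stretches show the sequence at the borders of a pair of deserts and in the middle of one of them. Each promoter stretch holds the 250 bases before the start of a gene that faces a desert, and the midpoint stretch holds the central 300 bases of the desert beside Nrg3, read 5′ to 3′ from RefSeq on GRCm38.p6, with CpG dinucleotides in capitals. The genes are the promoter-facing border genes with the highest inward fork share among the developmental transcription factors and with the lowest in the adhesion and guidance list, which also takes in neuregulins, of those whose RefSeq and GENCODE starts lie within 50 bases. Pou3f3, a neural transcription factor, starts at the edge of the Tmem182-Pou3f3 desert (promoter chr1:42695518-42695767, plus strand). Nrg3, a neuregulin that binds the receptor ERBB4, starts at the edge of the Nrg3-Sh2d4b desert (promoter chr14:39473089-39473338, minus strand; midpoint chr14:40143289-40143588, plus strand).
Pou3f3 promoter: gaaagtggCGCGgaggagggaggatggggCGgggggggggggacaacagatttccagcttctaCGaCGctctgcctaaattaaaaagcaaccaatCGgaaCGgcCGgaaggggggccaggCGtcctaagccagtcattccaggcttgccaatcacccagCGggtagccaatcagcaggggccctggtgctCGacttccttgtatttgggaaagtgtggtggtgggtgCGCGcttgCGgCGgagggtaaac
Nrg3 promoter: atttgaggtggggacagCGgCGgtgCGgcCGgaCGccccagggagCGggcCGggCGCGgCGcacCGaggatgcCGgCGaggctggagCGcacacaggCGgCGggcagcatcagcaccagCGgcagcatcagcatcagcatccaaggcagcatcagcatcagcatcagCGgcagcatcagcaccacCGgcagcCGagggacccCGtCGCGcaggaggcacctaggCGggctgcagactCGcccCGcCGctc
Nrg3-Sh2d4b midpoint: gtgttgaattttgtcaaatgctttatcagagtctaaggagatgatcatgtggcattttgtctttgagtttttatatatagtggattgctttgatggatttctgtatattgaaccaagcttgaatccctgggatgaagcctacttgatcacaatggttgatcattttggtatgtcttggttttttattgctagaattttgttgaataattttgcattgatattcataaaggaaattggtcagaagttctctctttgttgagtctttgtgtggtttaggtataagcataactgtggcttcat
The promoters of Pou3f3 and Nrg3 held 15 and 27 CpG at 39.2% and 27.6% A and T, and the midpoint held 0 CpG at 66.3%. The motif CG, which reads the same on both strands, occurred in 92.1% of 32851 RefSeq promoter stretches of 250 bases, with a median of 6 copies. It occurred in 73.8% of the 248 desert midpoints of 300 bases, with a median of 1. Across whole deserts CpG density was 6.25 and 6.37 per kb in the outermost of 10 equal parts and fell to 5.20 per kb near the centre, while A and T rose from 60.6% at the edges to 62.2%.

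In all 6 libraries forks converged on the deserts. When each desert was cut into 10 equal parts, the Crick share of the summed reads fell at each of the 9 steps from left to right and passed 50% between parts 5 and 6. In naive cells it fell from 59.9% to 39.5% in control, from 62.1% to 37.7% in dKO and from 65.4% to 34.4% in dCD. In EpiLCs it fell from 58.6% to 41.0% in control, from 59.6% to 40.1% in dKO and from 60.9% to 38.7% in dCD. The span between the first and last part was thus widest in naive dCD cells, at 31.0 percentage points, and narrowest in EpiLC control cells, at 17.6 points. The Crick share also followed base composition. When 1 kb bins were compared with their neighbours, a fitted line gained 1.20 to 1.82 points of Crick share for each point by which T exceeded A on the reference strand. Whether this slope comes from how strands are read or from fork direction that follows sequence was not tested. That excess of T over A itself fell at every step across the deserts, from 1.34% of bases in the first part to -1.56% in the last, so the tilt is given below with and without the fitted base term.

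**Figure D1:**
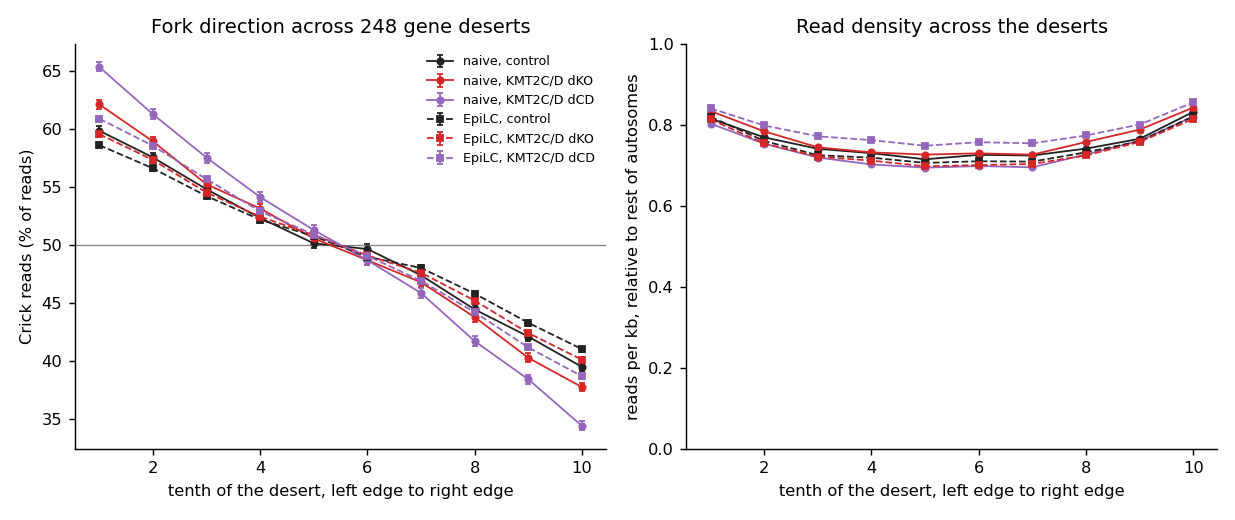
Left, share of Crick reads (percent) over the 10 parts of the desert from its left to its right edge, with 248 deserts summed in each of the 6 libraries (lines; bars are 95% counting intervals). Right, reads per kb relative to the rest of the autosomes. Every line on the left falls at each step, from 58.6% to 65.4% in the first part to 34.4% to 41.0% in the last.

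The tilt of a desert was defined, over 3 equal parts, as the Crick share in the leftmost part minus that in the rightmost, in percentage points. Summed over the 248 deserts it was 14.7 (95% interval 14.4 to 14.98) in naive control cells, 17.4 (17.1 to 17.7) in naive dKO and 22.3 (22.0 to 22.6) in naive dCD. In EpiLCs it was 12.5 (12.3 to 12.7) in control, 14.0 (13.8 to 14.1) in dKO and 16.3 (16.1 to 16.4) in dCD. The order of control, dKO and dCD was the same in both states, with gaps that exceeded the counting intervals. With the T over A term removed the tilts were 9.55, 12.2 and 16.1 in naive control, dKO and dCD, and 9.38, 10.2 and 12.4 in EpiLC control, dKO and dCD, which kept that order.

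Forks converged on nearly every desert taken singly. The tilt was positive in 235 deserts in naive control cells (52.9% of all 2374 autosomal windows of 1 Mb), 239 in naive dKO (53.3% of windows) and 237 in naive dCD (52.3% of windows). In EpiLCs it was positive in 241 deserts in control (53.2% of windows), 241 in dKO (52.1% of windows) and 245 in dCD (53.8% of windows). The same 228 deserts were positive in every library (38.2% of windows), 18 changed sign between libraries, and 2 were negative in all 6 (32.7% of windows). The lower counting limit lay above 0 in 216 deserts in naive control cells (36.1% of windows), 218 in naive dKO (35.6%) and 226 in naive dCD (38.8%). In EpiLCs it did so in 226 deserts in control (39.2%), 227 in dKO (40.7%) and 236 in dCD (43.3%). The median desert tilt lay between 12.1 and 22.7 points, whereas the median over windows lay between 0.589 and 1.16 points. With the T over A term removed, the tilt was positive in 228, 236 and 234 deserts in naive control, dKO and dCD (51.9%, 52.8% and 53.5% of windows) and in 235, 236 and 242 in EpiLCs (52.9%, 52.3% and 54.3%). Of these, 228, 235 and 234 in naive cells and 235, 236 and 242 in EpiLCs were also positive before the removal. Most of the next shorter intervals between genes were positive too: of 350 intervals of 500 kb to 1 Mb with reads, 314, 323 and 320 had a positive tilt in naive control, dKO and dCD and 329, 323 and 326 in EpiLCs, or 89.7% to 94% over the libraries.

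The highest tilts included deserts beside Klf4 and Zic1, which are regulators of early development. Between Klf4, a transcription factor of naive pluripotency, and Actl7b, an actin-like gene of the testis (chr4:55532467-56740004), it was 37.4, 41.0 and 51.9 points in naive control, dKO and dCD and 32.4, 36.3 and 39.9 in EpiLC control, dKO and dCD, an order kept below. At this desert naive dCD cells read 74.9% Crick on the left and 23.0% on the right. Between Tbc1d2b and Zic1, a zinc-finger factor of the neural plate and cerebellum, it was 40.4, 47.2 and 48.2 points in naive cells and 27.4, 31.7 and 37.1 in EpiLCs. Adra2a-Gpam and Lmo7-Kctd12, which border an adrenergic receptor gene and a subunit gene of the GABA-B receptor complex, were also among the 5 highest in the summed EpiLC reads, at 27.0 to 45.5 points over the 6 libraries. At these 4 deserts dCD exceeded control and the naive library exceeded the EpiLC library of the same genotype.

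At the other end, 2 deserts had a negative tilt in all 6 libraries. Klhl1-Dach1 (chr14:96519103-97786852), which borders the retinal determination factor Dach1, had tilts of -8.03, -7.90 and -7.64 points in naive cells and -1.54, -3.62 and -3.66 in EpiLCs. Its EpiLC control interval, -5.12 to 2.04, included 0. Lrrc4c-Gm10801 (chr2:97631667-98662236), which borders the netrin-G1 ligand gene Lrrc4c, had -5.92, -3.69 and -2.34 points in naive cells and -3.86, -6.51 and -7.97 in EpiLCs. Only the EpiLC dKO and dCD intervals of that desert excluded 0, so its naive and EpiLC control values could not be told from 0 at this depth. The other three of the 5 lowest in summed EpiLC reads, Reg3g-Gm20594, 4931408C20Rik-Gm597 and Dsel-Cntnap5a, had values of both signs over the libraries, between -6.14 and 4.89 points.

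**Figure D2:**
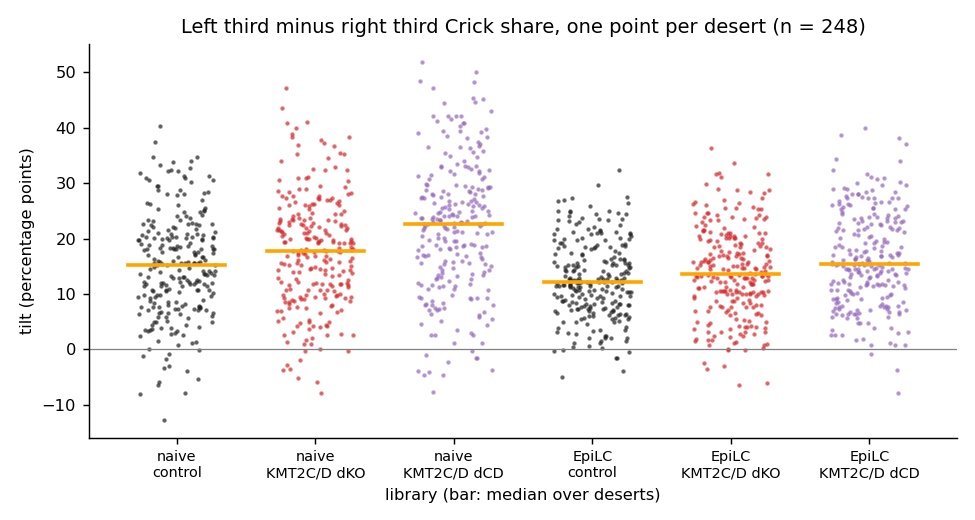
Tilt in percentage points (vertical axis) of the 248 deserts, 1 point per desert, in the 6 libraries (horizontal axis), with a bar at the median over deserts. In every library most points lie above 0 (235 to 245 of 248), and the dCD medians, 22.7 in naive cells and 15.4 in EpiLCs, are the highest of their state.

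The tilts of the 10 longest deserts ran from below 0 to values above those summed over all deserts, and in several the profile was not a single slope. In Tenm3-Aga (chr8:48843952-53511726), the longest, between a teneurin gene of synaptic wiring and a lysosomal enzyme gene, the tilt was 7.18, 11.8 and 15.5 points in naive cells and 6.51, 7.94 and 11.7 in EpiLCs. Its summed naive reads were 60.5% Crick in the first of 10 parts, 40.5% in the fifth, 59.3% in the sixth and 39.0% in the last, so the share fell, rose and fell again. The rise was smaller in its summed EpiLC reads, with 48.8% in the fifth part and 53.1% in the sixth. Pcdh20-Pcdh9 (chr14:88471397-93013409), between protocadherin genes, had tilts of -1.82, -2.84 and -1.59 points in naive cells and 0.28, 0.32 and 2.52 in EpiLCs, all within 3 points of 0. In its summed EpiLC reads the share fell to 44.1% in the second part and rose to 59.99% in the next. Dsel-Cntnap5a, beside a contactin-associated adhesion gene, had -3.39, 2.01 and -4.59 points in naive cells and -1.64, 0.12 and -0.90 in EpiLCs. Its naive reads rose from 39.6% Crick in part 5 to 61.1% in part 7. Cntnap5b-Cdh20 stayed between 1.24 and 4.07 points, and Pcdh7-G6pd2 lay between -5.27 and 2.37. Sel1l-Flrt2 and Zeb2-Acvr2a, at 11.9 to 24.2 and 12.9 to 24.3 points and above the summed value in naive dKO and naive dCD, Celf4-Pik3c3 at 10.8 to 19.8, Slc39a10-Tmeff2 at 9.30 to 16.6 and Olfm4-Pcdh17 at 7.45 to 16.9 tilted one way in all 6 libraries.

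Length and tilt did not run in one direction. From the shortest intervals between genes, of 100 to 250 kb, the naive control tilt rose from 4.29 points to 17.2 in intervals of 1 to 2 Mb and was 11.4 in those over 2 Mb. In EpiLC control the tilt rose from 3.28 to 14.3 points and was 10.2 in the longest intervals, and naive dCD cells rose from 5.15 to 25.6 and had 17.9. Intervals of 500 kb to 1 Mb, just too short to be deserts, had tilts of 16.4, 18.3 and 22.7 points in naive control, dKO and dCD and 13.997, 14.95 and 16.9 in EpiLCs. These were above the tilt summed over all deserts in each library, so converging forks were also found in intervals under 1 Mb. Within the deserts, the 122 of 1 to 1.5 Mb had tilts of 17.3, 21.2 and 25.96 points in naive control, dKO and dCD and 14.2, 16.2 and 18.8 in EpiLCs. The 26 over 3 Mb had 9.08, 11.6 and 15.99 points in naive cells and 8.79, 9.79 and 12.2 in EpiLCs, lower in each library. The parts compared grow with the desert, so these values do not measure the same distance from the edge. Over the 248 deserts the summed EpiLC tilt had a Spearman rho of -0.229 with length and -0.616 with A and T content, and the summed naive tilt -0.289 and -0.591. These describe deserts that share libraries and differ in several sequence features at once.

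**Figure D3:**
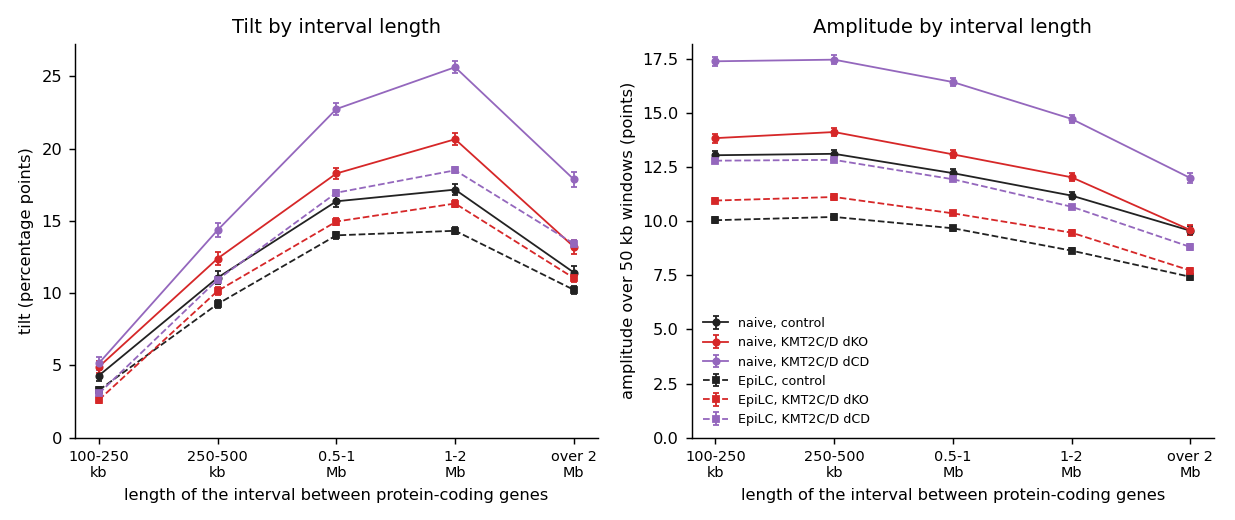
Tilt (left) and amplitude over 50 kb windows (right), both in percentage points, by length class of the interval between neighbouring protein-coding genes, in the 6 libraries (lines; bars are 95% counting intervals). Tilt in naive control peaks at 17.2 points in intervals of 1 to 2 Mb and is 11.4 over 2 Mb, whereas its amplitude is 13.1 in the shortest class and 9.56 in the longest.

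The inward slant was strongest just inside the border genes. At the 496 desert edges the share of reads from forks moving into the desert, termed the inward share, was 49.8% to 51.1% in the 6 libraries at 450 to 500 kb outside the edge. It changed sharply at the edge itself: from the last 50 kb outside to the first 50 kb inside it went from 54.2% to 60.1% in naive control cells, from 58.2% to 65.5% in naive dCD and from 53.9% to 58.6% in EpiLC control. The highest values lay 50 to 100 kb inside, at 60.8%, 63.4% and 66.2% in naive control, dKO and dCD and 59.6%, 60.5% and 62.1% in EpiLCs. At 450 to 500 kb inside, the inward share had fallen to 54.4%, 55.3% and 56.1% in naive cells and 53.4%, 53.8% and 54.6% in EpiLCs. Read density fell along the same path, from 0.914 to 0.943 of that of the rest of the autosomes just outside to 0.732 to 0.779 at 450 to 500 kb inside.

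**Figure D4:**
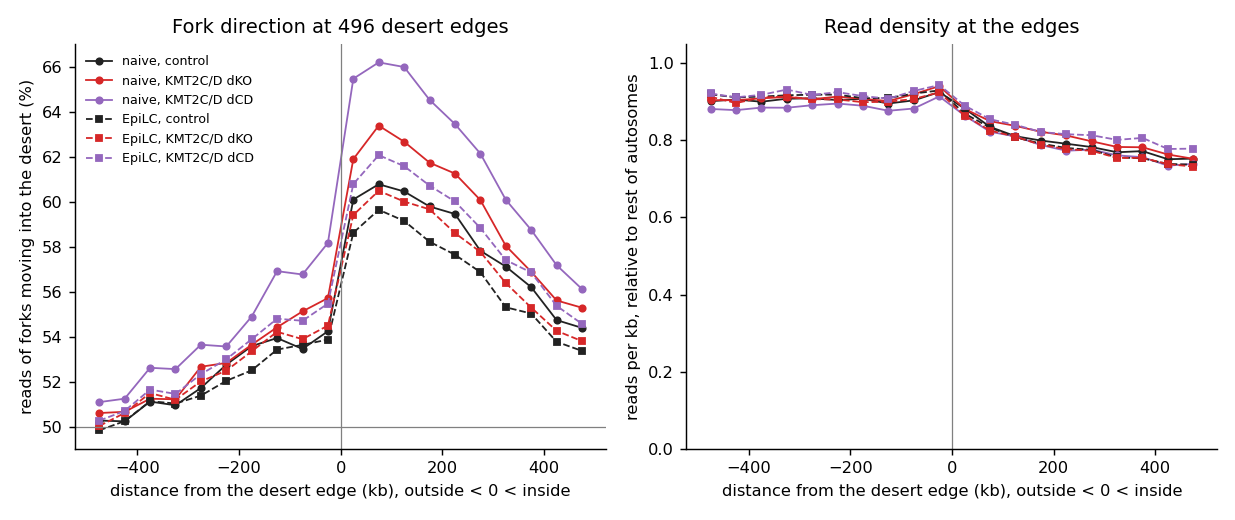
Left, inward share (percent of reads from forks moving into the desert) in 50 kb steps from 500 kb outside to 500 kb inside the 496 edges, in the 6 libraries; right, reads per kb relative to the rest of the autosomes. The inward share is near 50% far outside, steps up at the edge and peaks 50 to 100 kb inside, at 59.6% to 66.2%.

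Which end of the border gene faced the desert mattered outside the edge and little inside. In the 100 kb outside the edge, the inward share at the 265 edges faced by a gene's start minus that at the 231 faced by a gene's end was -9.10, -8.64 and -9.62 points in naive control, dKO and dCD and -6.22, -6.92 and -6.67 in EpiLCs. In the first 100 kb inside, the same differences were -1.07, -0.230 and -0.0226 points in naive cells and -0.217, -0.424 and -0.100 in EpiLCs. Gene length went with the inward share: over the first 200 kb, edges of genes longer than the median of 72.1 kb differed from those of shorter genes by -4.71, -5.39 and -6.81 points in naive cells and -3.27, -4.53 and -4.81 in EpiLCs. With the base term removed, longer and shorter genes had 55.2% and 58.6% in naive control and 55.5% and 58.0% in EpiLC control cells, a smaller difference. The profile at the edges and the differences by gene end are given with the base term left in.

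The 460 border genes were grouped by symbol prefix into families. Adhesion and guidance genes (cadherins, protocadherins, contactin-associated, Slitrk and like genes, with neuregulins counted among them) made up 9.35% of border genes, 43 in all, against 0.987% of 20780 gene symbols. Developmental transcription factors made up 3.26%, 15 genes, against 1.04%, channels and receptors 3.26% against 1.11%, and chemosensory receptors 0.217%, a single gene, against 7.28%. These are counts without a test. The prefixes miss members with other names.

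Deserts received more inward forks beside transcription factor genes than beside adhesion genes in every library. Over the first 200 kb the inward share beside 15 transcription factor edges was 63.98%, 66.8% and 69.8% in naive control, dKO and dCD and 63.4%, 62.5% and 66.1% in EpiLCs. Beside 59 adhesion edges it was 53.5%, 54.7% and 55.9% in naive cells and 53.9%, 54.1% and 54.9% in EpiLCs. In naive control cells the 95% intervals were 62.7% to 65.3% beside transcription factors and 52.7% to 54.2% beside adhesion genes. All 496 edges together lay between, at 60.3%, 62.4% and 65.6% in naive cells and 58.9%, 59.9% and 61.3% in EpiLCs, and the 15 channel and receptor edges were at 55.2% to 59.9%. Each of the 15 transcription factor edges was above 50% in each library, as were 39 to 48 of the 59 adhesion edges and 420 to 444 of all 496 edges. The T over A excess read inward was 1.91% at transcription factor edges, 0.565% at adhesion edges and 1.53% at all edges. With the base term removed the shares were 58.95% to 64.7% beside transcription factors, 52.04% to 54.3% beside adhesion genes and 56.8% to 61.4% over all edges.

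The families also differed in gene size, with median lengths of 8.31 kb for the transcription factors, 392 kb for the adhesion genes and 162 kb for the channels and receptors. Among genes of at most 72.1 kb, 12 transcription factor edges had 65.4% in naive control and 64.8% in EpiLC control cells, and 9 adhesion edges had 55.96% and 55.6%. The 221 other edges of that size had 62.8% and 60.5%. Among longer genes, 50 adhesion edges had 53.0% and 53.5% and 185 others 59.3% and 58.2%, and the 3 transcription factor edges left had 58.4% and 57.6%. Against those other edges, the 3 transcription factor edges were lower in both controls and in EpiLC dKO (56.7% against 58.6%) and higher in naive dKO (63.4% against 61.0%), naive dCD (64.8% against 63.9%) and EpiLC dCD (60.4% against 60.1%), so they had no settled order among longer genes. Adhesion edges were below both of these groups in both size classes in each library. The part of gene size in this was not tested.

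**Figure D5:**
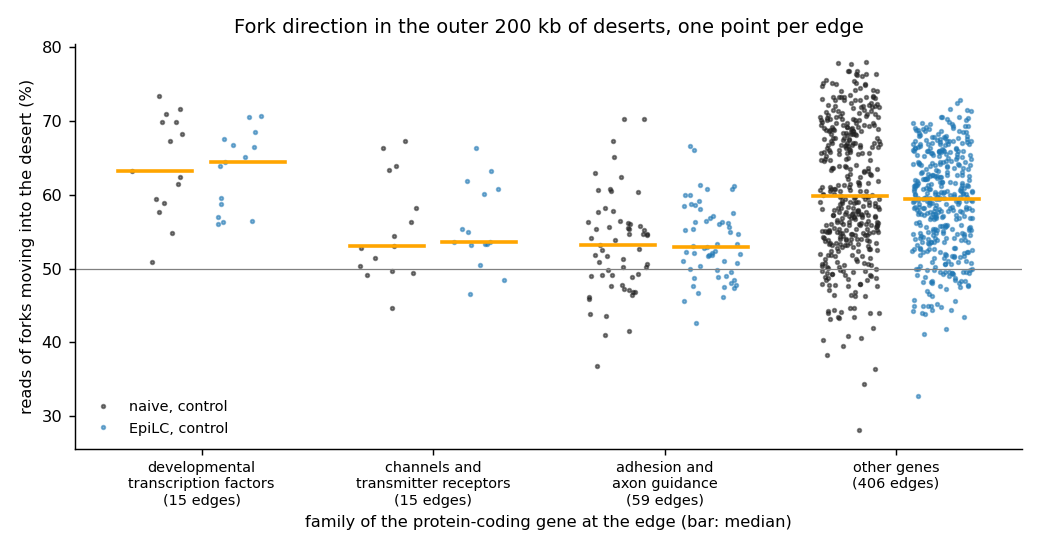
Inward share (percent) over the outer 200 kb of the desert, 1 point per edge, by family of the border gene, in naive control and EpiLC control cells, with bars at the medians. All 15 transcription factor points lie above 50% in both libraries, while adhesion points spread on both sides of it, with medians of 53.2% and 53.0%.

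Single borders showed how far the families spread. Beside Gata3, a master factor of T helper cells and of the inner ear, the inward share was 70.97%, 69.6% and 73.9% in naive control, dKO and dCD and 70.6%, 69.3% and 72.7% in EpiLCs. Beside Sox9, the chondrocyte and testis factor whose deserts hold distant enhancers, it was 71.6%, 68.3% and 81.0% in naive cells and 66.4%, 67.6% and 73.5% in EpiLCs. Beside Pou3f3, whose promoter is printed above, it was 67.3%, 75.7% and 76.9% in naive cells and 68.4%, 65.5% and 72.0% in EpiLCs. These borders had at least 65% inward reads in each library. Zic1 and the nuclear receptors Nr2f1 and Nr2f2, which act in neural and vascular development, ran from 66.7% to 75%. Sox2, the pluripotency factor expressed in both states, was lower, at 58.9%, 63.6% and 62.7% in naive cells and 59.5%, 55.3% and 57.1% in EpiLCs. The lowest transcription factor value, 50.9%, was that of Zfhx4 in naive control cells.

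Beside the start of Nrg3 the share was 47.7%, 40.8% and 45.6% in naive cells and 46.2%, 47.8% and 45.3% in EpiLCs. At the other end of Nrg3, in the Ghitm-Nrg3 desert, it was 36.8%, 45.5% and 41.0% in naive cells and 48.5%, 44.3% and 44.9% in EpiLCs. The values at this gene, named for its low shares, were all below 50%, but the upper counting limit was below 50% in only 3 of the 6 libraries at its start and 4 at its other end. Lrrc4c differed between its ends, with 51.0% to 58.0% over the libraries in the Api5-Lrrc4c desert. In the Lrrc4c-Gm10801 desert the share was 43.6%, 47.7% and 44.4% in naive cells and 42.7%, 43.0% and 43.3% in EpiLCs, with upper limits below 50% in the 3 EpiLC libraries only. Adhesion genes varied, and Cdh5, the endothelial VE-cadherin, had 70.3%, 68.3% and 78.5% in naive cells and 66.6%, 70.5% and 70.9% in EpiLCs. Cdh6, a cadherin of kidney and neural crest, ran from 60.7% in naive control to 81.1% in naive dCD cells.

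Within deserts the Crick share also varied less from place to place than elsewhere. The amplitude, the standard deviation of the Crick share over 50 kb windows after counting error was taken off, was 10.5, 10.98 and 13.5 points in naive control, dKO and dCD deserts against 13.03, 13.7 and 17.1 in the rest of the autosomes. In EpiLCs it was 8.11, 8.71 and 9.86 points against 10.04, 11.02 and 12.7. The ratio of deserts to the rest lay between 0.774 and 0.808 in the 6 libraries. The mean profile over 10 parts took up 30.7% to 42.3% of the variance inside deserts. With the base term removed, desert amplitudes were 6.59, 7.23 and 9.30 points in naive cells and 6.03, 6.10 and 7.36 in EpiLCs. The rest of the autosomes then had 9.29, 10.2 and 13.1 points in naive cells and 7.95, 8.46 and 10.2 in EpiLCs, and the ratio of deserts to the rest lay between 0.709 and 0.758.

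Between EpiLCs and naive cells the tilt was lower in EpiLCs for each genotype. EpiLC minus naive was -2.16 points in control (-2.50 to -1.81), -3.45 in dKO (-3.81 to -3.10) and -6.01 in dCD (-6.38 to -5.65). With the base term removed it was -0.165 points in control (-0.514 to 0.185), -1.97 in dKO and -3.72 in dCD, so the control difference was then not detectable at this depth. The fitted slopes were 1.76 in naive control and 1.20 in EpiLC control cells, and their part in this was not tested. The amplitude of the rest of the autosomes was also lower in EpiLCs for each genotype, as given above. Divided by it, the desert tilt of control cells was not lower but higher in EpiLCs, at 1.25 against 1.13 in naive cells, whereas dKO had 1.27 in both states and dCD had 1.28 against 1.30. With the base term removed from both measures these were 1.18 against 1.03 in control, 1.204 against 1.196 in dKO and 1.222 against 1.229 in dCD. The part of amplitude in the lower EpiLC tilt was not tested. The tilt was higher in EpiLCs in 78 of 248 deserts in control (49.2% of 1 Mb windows), 48 in dKO (48.9% of windows) and 46 in dCD (49.5% of windows). Window tilts lay on both sides of 0 (53.2% positive in EpiLC control), whereas most desert tilts were positive. A change of amplitude over all autosomes would thus move the desert counts but hardly the window share. The share is therefore no background for such a change. By chromosome, tilt was higher in EpiLCs on 1 of 19 in control, chromosome 7 with 0.41 points, and on 0 of 19 in each mutant. Amplitude was also lower in EpiLC deserts, with EpiLC minus naive at -2.36, -2.27 and -3.68 points in control, dKO and dCD. Over the 248 deserts the naive and EpiLC tilts, each summed over genotypes, ran together with Pearson's r of 0.922 and Spearman's rho of 0.910, across deserts that share the same sequence in both.

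Against control, both mutants had steeper deserts in both states. The tilt of dKO exceeded control by 2.74 points in naive cells (2.31 to 3.16) and 1.44 in EpiLCs (1.19 to 1.69), and by 2.61 and 0.806 with the base term removed. It was higher in dKO in 177 of 248 naive deserts (50% of windows) and 164 EpiLC deserts (49.7% of windows). The tilt of dCD exceeded control by 7.60 points in naive cells (7.16 to 8.03) and 3.74 in EpiLCs (3.49 to 3.99), and by 6.58 and 3.03 with the base term removed. It was higher in dCD in 222 naive deserts (49.7% of windows) and 210 EpiLC deserts (51.3% of windows). As for the comparison of states, these window shares are no background for a change of amplitude over all autosomes. For dCD the difference was positive on 19 of 19 chromosomes in both states. For dKO it was positive on 19 in naive cells and on 18 in EpiLCs, where chromosome 16 had -1.57 points.

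Fork direction varied more across the rest of the autosomes in the same libraries. The amplitude of the rest of the autosomes was highest in dCD in both states, as given above, and in deserts it exceeded control by 3.07 points in naive dCD, 1.75 in EpiLC dCD, 0.509 in naive dKO and 0.604 in EpiLC dKO. The last of these was 0.0688 points (-0.0565 to 0.194) with the base term removed. On the scale of tilt divided by the amplitude of the rest, the 3 EpiLC libraries and both naive mutants lay between 1.25 and 1.30, and naive control lay lower.

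Reads were sparser in deserts than elsewhere. The density in deserts relative to the rest of the autosomes was 0.756, 0.767 and 0.738 in naive control, dKO and dCD and 0.746, 0.740 and 0.787 in EpiLCs. Within deserts it was lowest in the middle parts and highest at the edges. When the rest was weighted to the A and T content of the deserts the ratios were 0.846, 0.847 and 0.847 in naive cells and 0.788, 0.797 and 0.829 in EpiLCs, so part of the deficit went with base composition and a deficit was left in each library. By class of A and T content, the ratio rose from 0.516 to 0.547 in bins under 52% to 0.918 to 0.967 in bins over 68%. Density was below that of the rest in all 6 libraries in 230 deserts (46.3% of windows) and above it in all 6 in 4 (34.5% of windows): Sox2-Atp11b, Mki67-Mgmt, Rnf144b-Id4 and Tle4-Psat1.

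The 3 densest deserts in the summed EpiLC reads differed in which libraries were dense. Sox2-Atp11b, beside Sox2, had densities of 1.126, 1.116 and 1.072 times the rest in naive cells and 1.105, 1.161 and 1.051 in EpiLCs. Mki67-Mgmt, between the gene of the proliferation antigen Ki-67 and a DNA repair gene, had 1.110, 1.088 and 1.148 in naive cells and 1.090, 1.147 and 1.044 in EpiLCs. Dok5-Cbln4 (chr2:170879770-172036232), beside the synaptic organizer gene Cbln4, had 0.981, 0.999 and 1.357 in naive cells and 0.931, 0.992 and 1.455 in EpiLCs. It was thus dense in both dCD libraries and closer to the rest of the autosomes in the other four. Its tilt was 7.02, 19.4 and 26.2 points in naive cells and 5.71, 16.3 and 24.9 in EpiLCs, highest in dCD in both states. The stretch around it was dense in dCD as a whole: from 161 to 180 Mb of chromosome 2, reads in dCD over control were 1.28 and 1.36 in consecutive 10 Mb windows of naive cells and 1.27 and 1.41 in EpiLCs, whereas the 10 Mb window before it had 0.975 and 0.931. In dKO the same windows lay between 0.978 and 1.049. Other chromosomes also departed in dCD over control. From 81 to 90 Mb of chromosome 18 the ratios were 0.686 in naive cells and 0.621 in EpiLCs. From 121 to 130 Mb of chromosome 6 they were 1.16 and 1.06, and from 31 to 40 Mb of chromosome 15 they were 0.831 and 0.824. Without chromosomes 2, 3, 4, 6 and 18, but with chromosome 15 kept, the tilt over all deserts exceeded control by 7.61 points in naive dCD and 3.85 in EpiLC dCD. The 3 sparsest deserts lay close together near the start of chromosome 12, beside the gene models Gm10330, 5730507C01Rik and Gm21863: Ywhaq-Gm10330 at 0.120 to 0.152, 5730507C01Rik-Gm21863 at 0.138 to 0.178 and Gm21863-Asap2 at 0.215 to 0.268. Without these 3, a choice made after their values were seen, the density of deserts was 0.744 to 0.773 in naive cells and 0.746 to 0.793 in EpiLCs.

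Local zones where the Crick share rose were called often at fine scale inside deserts but seldom at wide scale. In the summed EpiLC reads, 3972 positions in 248 deserts rose by at least 10 points between the flanking 25 kb windows, 8.83 per Mb against 6.90 in the rest. At these positions the naive libraries, which had no part in the choice, rose by 14.5, 13.5 and 14.7 points in control, dKO and dCD, and by 15.1, 14.1 and 15.5 in the rest of the autosomes. With the base term removed only 1343 positions were left, and the naive rise was 4.42, 2.88 and 4.13 points. No rate or rise of the rest is given for that setting, so whether deserts then still held more zones per Mb is not shown. What the fitted term removes was not tested further. With flanking windows of 200 kb, 71 zones in 56 deserts were found, 0.158 per Mb against 1.12 in the rest. Both flanking windows had to lie inside the desert, so no zone could be called within 200 kb of an edge. The desert rate is taken over the whole length of the deserts and is lowered by this. There the naive libraries rose by 11.9, 10.3 and 12.2 points in deserts and by 20.8, 21.6 and 26.3 in the rest.

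The strongest wide zone in the summed EpiLC reads, in Gm10800-B230118H07Rik, rose by 24.3 points there but had wide intervals, with 8.75 (-20.3 to 32.3) in the summed naive reads and -17.9 in EpiLC dCD. The next 3 were in deserts of low tilt named above, and the one after them, in Zeb2-Acvr2a with its tilt of 12.9 to 24.3 points, rose by 17.8. The zone at 113965000 on chromosome 1 in Dsel-Cntnap5a rose by 19.9 points in the summed EpiLC reads and by 35.9 (31.3 to 40.2) in the summed naive reads. The zone at 89316000 on chromosome 14 in Pcdh20-Pcdh9 rose by 21.2 points in EpiLCs and 21.0 in naive cells, and the zone at 97963000 on chromosome 2 in Lrrc4c-Gm10801 by 21.5 and 17.1. From left to right, 5 equal parts of the deserts held 10, 18, 17, 22 and 4 of the wide zones. The outermost parts include the 200 kb at each edge where none could be called, so their lower counts were partly fixed in advance. Of the 3 strongest fine-scale zones, the one in Hnf4g-Zfhx4 rose by 45.5 points in EpiLCs and 48.6 (33.7 to 60.2) in naive cells. Those in 5730507C01Rik-Gm21863 and Ywhaq-Gm10330 lay in the sparse deserts of chromosome 12 and had naive intervals from -16.9 to 38.8 and -21.2 to 43.7 points.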

How the data were processed

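OK-seq was made from 12 samples, 2 replicates of each of 6 groups. Per the file headers and labels, the deposited signal is the density of Watson and of Crick reads in 1 kb bins of mm10, with the replicates summed and not scaled by the authors. Multiplied by 1000 the values gave whole reads (largest deviation 2.27e-13). A bin's position was taken as its end, since that placed 0 reads in bins of unknown sequence against 2990 otherwise. The submitters' processing notes name FastQC, Trim Galore, Bowtie2 and Picard, with versions not given in the sources used here, and list hg19 beside mm10.

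Bins over 10 times the median count (122, of which 4 lay in deserts) and bins with under 500 known bases (66808, of which 242 lay in deserts) were left out. Shares have Wilson and differences Newcombe 95% intervals, from Python 3.11.15 with numpy 2.4.6, pandas 2.3.3, scipy 1.17.1 and matplotlib 3.10.9, with procedures tested on simulated data. Amplitude used windows with at least 10 reads. The T over A term was a slope fitted in each library on the difference of each bin from its neighbours, in Crick share and in T minus A. The neighbours were the 10 bins on each side without the nearest 2. Genes named are the borders of the 10 longest deserts, the 5 highest and 5 lowest in tilt, the 3 highest and 3 lowest in density, the 3 strongest zones, all by summed EpiLC reads, and members of the families, the others being chosen after their values were seen. The values of 1 desert of high tilt and 1 midpoint sequence are not reported here. Deserts and lists were chosen with earlier results of these data known. Alternatives covered bins, depth, edges, chromosomes, windows, the density reference and zone thresholds.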

Additional observations from a re-analysis of the deposited data

Results flagged for a closer look

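The density of deserts relative to the rest of the autosomes moved in opposite directions in sets that would be read under the same contrast. The ratio of dKO to control was 1.014 in naive cells and 0.992 in EpiLCs, and the ratio of dCD to control was 0.975 in naive cells and 1.054 in EpiLCs. The ratio of EpiLC to naive was 0.987 in control and 0.965 in dKO but 1.066 in dCD. These differences were not tested, since each value comes from 1 summed library per group. The density of deserts itself was 0.738 to 0.787 of that of the rest. With the reference weighted to the A and T content of deserts, EpiLC dCD over naive dCD was 0.979, naive dCD over control 1.001 and EpiLC dKO over control 1.012, on the other side of 1 from the values above.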

How the results depend on the processing

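No paired analysis was possible because the 2 replicates of each group were summed in the tracks, and for the same reason no replicate could be left out. Values are given here in the order naive control, naive dKO, naive dCD, EpiLC control, EpiLC dKO and EpiLC dCD, and a pair such as naive dCD-control or naive dCD/control is a difference or ratio of the library named first against control of the same state. Only values that moved by more than their counting interval are given. Each alternative was run for the results it bears on, and there tilt, amplitude and zone values kept their sign, although with the T over A term removed the EpiLC-naive control tilt, at -0.165 (-0.514 to 0.185), and the EpiLC dKO-control amplitude, at 0.0688 (-0.0565 to 0.194), could not be told from 0. The sign of 3 density ratios, taken as above or below 1, turned with the reference weighted to A and T content: EpiLC/naive dCD, naive dCD/control and EpiLC dKO/control. Why they turned was not tested. The number of deserts with a positive tilt was 228 to 242 over the libraries with the T over A term removed, 218 to 231 without bins near other annotated genes, and 161 to 169 of 171 without 5 chromosomes. The 200 kb zone windows, the removal of the sparse deserts of chromosome 12 and the base-corrected and size-split family values were chosen after seeing the data. With bins of extreme count kept, density was 0.753 in naive control, 0.763 in naive dKO, 0.734 in naive dCD, 0.744 in EpiLC control and 0.738 in EpiLC dKO. With the T over A term removed, tilt was 9.55, 12.2, 16.1, 9.38, 10.2 and 12.4, and tilt differences were -0.165 for EpiLC-naive control, -1.97 for EpiLC-naive dKO, -3.72 for EpiLC-naive dCD, 6.58 for naive dCD-control, 0.806 for EpiLC dKO-control and 3.03 for EpiLC dCD-control. Then amplitude was 6.59, 7.23, 9.30, 6.03, 6.10 and 7.36, and amplitude differences were -0.566 for EpiLC-naive control, -1.13 for EpiLC-naive dKO, -1.94 for EpiLC-naive dCD, 2.70 for naive dCD-control, 0.0688 for EpiLC dKO-control and 1.33 for EpiLC dCD-control. Then the rise at zones was 4.42 in naive control, 2.88 in naive dKO and 4.13 in naive dCD. With all libraries thinned to the smallest, amplitude was 8.21 in EpiLC control and 8.87 in EpiLC dKO, and the amplitude difference was -2.10 for EpiLC-naive dKO. Then density was 0.748 in EpiLC control, and the density ratio was 0.989 for EpiLC dKO/control. Then tilt was 14.3 in EpiLC dKO, and the tilt difference was 1.79 for EpiLC dKO-control. With the outer 50 kb at each edge left out, tilt was 14.1, 16.8, 21.4, 12.03, 13.5 and 15.7, and the tilt difference was -5.65 for EpiLC-naive dCD. Then density was 0.749, 0.760, 0.730, 0.739, 0.733 and 0.780, and amplitude was 13.3 in naive dCD, 8.62 in EpiLC dKO and 9.75 in EpiLC dCD. Without chromosomes 2, 3, 4, 6 and 18, density was 0.751, 0.762, 0.740, 0.742, 0.736 and 0.792, and density ratios were 1.071 for EpiLC/naive dCD, 0.986 for naive dCD/control and 1.067 for EpiLC dCD/control. Then amplitude was 8.01 in EpiLC control and 8.58 in EpiLC dKO. Without bins within 25 kb of annotated genes of other types, tilt was 12.8, 15.5, 20.04, 11.2, 12.5 and 14.7, and tilt differences were -1.69 for EpiLC-naive control, -3.02 for EpiLC-naive dKO and -5.35 for EpiLC-naive dCD. Then density was 0.748, 0.760, 0.730, 0.740, 0.731 and 0.783, and density ratios were 1.073 for EpiLC/naive dCD, 0.988 for EpiLC dKO/control and 1.059 for EpiLC dCD/control. Then amplitude was 8.36 in EpiLC control, 9.003 in EpiLC dKO and 9.97 in EpiLC dCD, and amplitude differences were -2.20 for EpiLC-naive control, -1.95 for EpiLC-naive dKO and 1.61 for EpiLC dCD-control. With each desert weighted equally, tilt was 15.0 in naive control and 21.9 in naive dCD, and tilt differences were -5.63 for EpiLC-naive dCD and 6.93 for naive dCD-control. With the outermost of 5 equal parts in place of 3, tilt was 18.02, 21.6, 27.1, 15.6, 17.3 and 19.9, and tilt differences were -4.35 for EpiLC-naive dKO, -7.18 for EpiLC-naive dCD, 3.63 for naive dKO-control, 9.06 for naive dCD-control, 1.74 for EpiLC dKO-control and 4.34 for EpiLC dCD-control. In deserts over 2 Mb alone, tilt was 11.4, 13.2, 17.9, 10.2, 11.04 and 13.4, and tilt differences were -1.20 for EpiLC-naive control, -2.16 for EpiLC-naive dKO, -4.45 for EpiLC-naive dCD, 1.78 for naive dKO-control, 6.44 for naive dCD-control, 0.818 for EpiLC dKO-control and 3.19 for EpiLC dCD-control. In windows of 25 kb, amplitude was 11.5, 11.9, 14.5, 8.73, 9.42 and 10.5, and amplitude differences were -2.79 for EpiLC-naive control, -2.46 for EpiLC-naive dKO and -4.03 for EpiLC-naive dCD. In windows of 100 kb, amplitude was 9.73, 10.3, 12.9, 7.64, 8.21 and 9.44, and amplitude differences were -2.08 for EpiLC-naive control and -3.50 for EpiLC-naive dCD. Relative to the same chromosome, density was 0.774, 0.786, 0.763, 0.761, 0.758 and 0.804, and density ratios were 0.983 for EpiLC/naive control, 1.054 for EpiLC/naive dCD, 0.987 for naive dCD/control, 0.996 for EpiLC dKO/control and 1.057 for EpiLC dCD/control. Over bins with at least 1 read, density was 0.762, 0.773, 0.743, 0.752, 0.746 and 0.793. With the reference weighted to A and T content, density was 0.846, 0.847, 0.847, 0.788, 0.797 and 0.829, and density ratios were 0.932 for EpiLC/naive control, 0.941 for EpiLC/naive dKO, 0.979 for EpiLC/naive dCD, 1.002 for naive dKO/control, 1.001 for naive dCD/control and 1.012 for EpiLC dKO/control. As the median over deserts, density was 0.758, 0.770, 0.750, 0.753, 0.737 and 0.799, and density ratios were 0.993 for EpiLC/naive control, 0.958 for EpiLC/naive dKO, 0.989 for naive dCD/control, 0.980 for EpiLC dKO/control and 1.062 for EpiLC dCD/control. Without the 3 sparse deserts of chromosome 12, density was 0.762, 0.773, 0.744, 0.753, 0.746 and 0.793. With zones of at least 20 points, the rise at zones was 24.9 in naive control, 23.1 in naive dKO and 24.6 in naive dCD. With zone windows of 50 kb, the rise at zones was 13.5 in naive control, 12.5 in naive dKO and 13.7 in naive dCD. With zones called in the naive libraries and measured in EpiLCs, the rise at zones was 6.80 in EpiLC control, 7.63 in EpiLC dKO and 7.37 in EpiLC dCD. With zone windows of 200 kb, the rise at zones was 11.9 in naive control, 10.3 in naive dKO and 12.2 in naive dCD.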

Other observations

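Density over the 248 deserts ran together between the summed naive and summed EpiLC reads (Pearson's r 0.971, Spearman's rho 0.952) and ran against the share of soft-masked bases (rho -0.698 in naive cells and -0.714 in EpiLCs). These values describe deserts whose mappability and repeat content are shared by all libraries.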
